A study of Homo sapiens with 12 samples.

Results

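The interferon regulatory factors (IRFs) of U937 cells were measured in untreated cells, after decitabine (DAC), after all-trans retinoic acid (ATRA) and after both agents. Every row of the transcript table whose gene symbol names an IRF was taken, which gave 133 transcripts among 197782 transcripts of 44786 symbols. Of these IRF transcripts, 39 had at least 1 read in 1 of the 12 libraries and 94 had none. The reads fell on 7 genes (IRF1, IRF2, IRF3, IRF4, IRF5, IRF8 and IRF9). The 32 transcripts of IRF7 were listed at 0 in all 12 libraries.

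U937 is an established human myelomonocytic line, here 1 line grown with 20% FCS and 5 ng/ml GM-CSF in all 4 groups. The groups were untreated cells (labelled 96 h), 200 nM DAC, 1 µM ATRA, and 200 nM DAC with 1 µM ATRA (DAC+ATRA), treated over 3 days and labelled 72 h, with 3 libraries each. The study's methods place ATRA at the last of the daily DAC doses, so exposure to ATRA was shorter than to DAC, and agent and exposure time cannot be told apart. Every comparison with untreated cells also sets libraries labelled 72 h against libraries labelled 96 h, so treatment and labelled time cannot be told apart there. The study's methods give 72 h for the harvest, and none of the 4 groups is labelled as treated with vehicle. DAC is a cytidine analogue that traps DNA methyltransferases, and ATRA is the ligand of the retinoic acid receptors. The design text calls the triplicates technical, so the p-values below measure the spread between libraries, which may not include variation between cultures.

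IRFs bind a GAAA-rich DNA element through a shared amino-terminal domain. In textbook terms, IRF1 activates interferon-inducible genes and is itself induced by gamma-interferon through a gamma-activated site (GAS) in its promoter, and IRF2 competes with IRF1 for the same element. IRF9 is the DNA-binding subunit of ISGF3, the complex that carries the type I interferon signal to the interferon-stimulated response element (ISRE). IRF4 and IRF8 are the lymphoid and myeloid members that bind with PU.1 or AP-1 factors at composite elements, and IRF8 directs monocyte development. IRF3, IRF5 and IRF7 lie dormant in the cytoplasm until kinases downstream of nucleic acid sensors phosphorylate them, after which they switch on interferon genes.

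Values are read counts per transcript divided by 1 size factor per library, called normalized reads here. The libraries held 8042435 to 10683593 reads (median 9874622), and 3 reads corresponded to 2.50 to 3.71 normalized reads. Mitochondrial transcripts took 40.6 to 42.5% of the reads in untreated libraries, 37.0 to 40.4% in DAC, 38.9 to 41.1% in ATRA and 36.3 to 38.3% in DAC+ATRA libraries, and the part of this in the results was not tested. A transcript at 0 does not mean a silent gene in this table: the leukocyte marker PTPRC was listed at 0 in all libraries, and ACTB, summed over 13 transcripts, had only 59.1 to 201 normalized reads. Of 13 myelomonocytic markers, 8 reached 10 normalized reads in at least 3 libraries. The summed level of all 13 was 57942 to 64792 in untreated, 35499 to 51507 in DAC, 37724 to 54837 in ATRA and 31586 to 34260 in DAC+ATRA libraries, and in untreated cells most of it was MPO. The granule enzyme MPO fell with each treatment, from 52578 ± 3072 in untreated to 15054 ± 682 in DAC+ATRA cells, while CEBPA, a myeloid transcription factor, rose with each (7791 ± 938 and 12930 ± 687). Of the 8, DAC raised 5, ATRA 3 and the combination 4 (each count with CSF1R, under 10 in every untreated library), where 28.2%, 6.68% and 31.1% of all symbols were called higher. Those raised by the combination included the integrin ITGAM (206 ± 12.01 in untreated and 2796 ± 119 in DAC+ATRA cells, SD, n = 3) and lysozyme, LYZ (164 ± 14.5 and 1097 ± 124). CD33 was called in none of the 3 comparisons, and CD14 and CD68 had 8 and 9 reads in all. Of 12 lymphoid markers, 4 passed the same filter, and the summed level of all 12 was 511 to 583 in untreated, 922 to 986 in DAC, 524 to 740 in ATRA and 1692 to 1823 in DAC+ATRA libraries. CD79A was the lymphoid marker that rose (131 ± 8.58 in untreated and 1336 ± 44.5 in DAC+ATRA cells, SD, n = 3), while PAX5 stood at 373 ± 41.8 and 366 ± 23.9, and CD3E had 1 read in all. The part of these markers in the IRF results was not tested, and in bulk RNA fewer cells of a type and less RNA per cell cannot be told apart.

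Promoter windows show the DNA around RefSeq start sites of the IRF genes. The IRF transcripts that start inside a window can start at another base than the RefSeq site, as IRF8 ENST00000563180 does, and the leading IRF8 transcript starts outside both IRF8 windows. RefSeq windows on GRCh38.p14, running from 250 bases before to 50 bases from a start site, were found for 5 genes (IRF1, IRF4, IRF5, IRF8 and IRF9). Each was searched on both strands for GAS (TTC, any 3 bases, GAA), ISRE (GAAA, any 2 bases, GAAA) and the Ets-IRF composite element (GGAA, any 2 bases, GAAA). The last 2 share GAAA and can overlap. Among 35114 windows, 7.66% held a GAS match, 3.57% an ISRE match and 2.82% a composite match. The IRF1 window (chr5:132490724-132491023, minus strand) and the IRF9 window (chr14:24161015-24161314, plus strand) each held 1 GAS match, in capitals, whose first base lay 124 and 63 bases before the start site. The IRF4 window (chr6:391502-391801, plus strand) and the IRF8 window (chr16:85902580-85902879, plus strand) held none of the 3 motifs. The first IRF5 window (chr7:128937677-128937976, plus strand) held none either. These 5 are shown because each holds the start of an IRF transcript that passed the tests below.
IRF1: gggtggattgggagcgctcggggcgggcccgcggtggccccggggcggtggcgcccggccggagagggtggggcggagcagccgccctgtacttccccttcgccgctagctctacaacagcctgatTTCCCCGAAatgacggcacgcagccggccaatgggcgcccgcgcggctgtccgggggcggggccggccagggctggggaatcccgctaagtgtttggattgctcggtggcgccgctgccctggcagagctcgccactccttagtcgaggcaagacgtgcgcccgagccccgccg
IRF9: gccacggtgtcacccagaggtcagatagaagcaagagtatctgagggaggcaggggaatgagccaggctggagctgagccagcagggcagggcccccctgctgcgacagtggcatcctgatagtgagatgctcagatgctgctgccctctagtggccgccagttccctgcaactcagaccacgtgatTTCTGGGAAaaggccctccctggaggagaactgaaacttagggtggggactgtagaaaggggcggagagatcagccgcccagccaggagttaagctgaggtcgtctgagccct
IRF4: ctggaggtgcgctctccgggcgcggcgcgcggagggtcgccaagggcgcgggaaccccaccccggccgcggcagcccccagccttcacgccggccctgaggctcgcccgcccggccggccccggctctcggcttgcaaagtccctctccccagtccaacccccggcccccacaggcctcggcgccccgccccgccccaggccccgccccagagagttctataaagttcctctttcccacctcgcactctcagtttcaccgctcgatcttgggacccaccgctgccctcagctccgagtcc
IRF8: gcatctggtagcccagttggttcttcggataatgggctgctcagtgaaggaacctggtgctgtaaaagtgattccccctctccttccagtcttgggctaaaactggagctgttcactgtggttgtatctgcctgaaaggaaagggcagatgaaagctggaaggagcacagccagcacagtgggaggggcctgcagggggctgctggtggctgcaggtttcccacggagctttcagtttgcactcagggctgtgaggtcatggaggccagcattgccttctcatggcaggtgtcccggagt
IRF5: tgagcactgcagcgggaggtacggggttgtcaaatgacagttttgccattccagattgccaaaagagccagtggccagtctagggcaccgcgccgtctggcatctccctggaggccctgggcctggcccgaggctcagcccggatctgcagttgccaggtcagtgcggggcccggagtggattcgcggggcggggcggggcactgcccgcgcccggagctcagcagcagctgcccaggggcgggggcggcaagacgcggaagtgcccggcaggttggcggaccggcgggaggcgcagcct
The 5 windows differed in CpG dinucleotides, the bases that DNA methyltransferases modify. The IRF1 window held 36 and the IRF4 window 32, more than 87.3% and 81.1% of all windows, the IRF5 window held 25, and the IRF9 window held 7 and the IRF8 window 3, against a median of 14. Another of the 4 IRF5 windows (chr7:128940420-128940719) held a composite match, the run TTTCGTTTCC on the plus strand, and the IRF5 transcript that starts in it, ENST00000473745, had 15 reads in all. A match describes the letters only.

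Taken gene by gene, with the reads of all transcripts of a symbol summed, DAC raised IRF1, IRF2, IRF4 and IRF9, ATRA raised IRF1, and the combination raised these 4 genes and IRF8 and lowered IRF5. Tested by limma on log2(sum + 1) with Benjamini-Hochberg adjustment over 13528 symbols, 4 of 7 IRF genes passed an adjusted p of 0.01 with DAC, all higher, where 40.6% of all symbols were called (28.2% higher). With ATRA 1 of 7 was called, higher, against 9.61% of all symbols (6.68% higher). With DAC+ATRA 6 of 7 were called, 5 higher and 1 lower, against 48.5% (31.1% higher and 17.4% lower). The median log2 fold change over the 7 IRF genes was 0.80, 0.23 and 1.00 in these comparisons, where the median over all symbols was 0.12, 0.00 and 0.11. With edgeR's TMM scaling the medians of all symbols were 0.02, -0.00 and 0.03. The DAC and DAC+ATRA counts include IRF4, which met the filter through the libraries with DAC. These 3 comparisons share the untreated libraries.

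**Figure D1:**
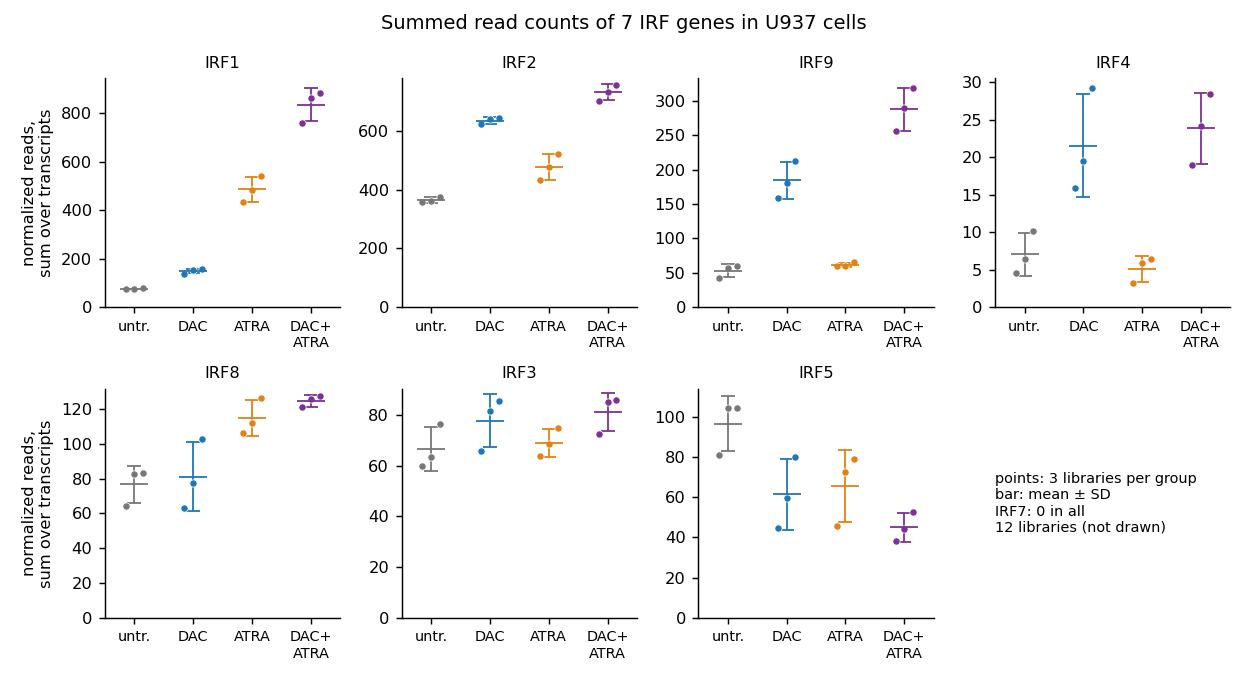
Normalized reads summed over all transcripts of each IRF gene (y axis, linear, from 0) in the 4 groups (x axis), with the 3 libraries of a group as points in order of value and the mean ± SD as bars. IRF1 climbs from 73.5 to 76.7 in untreated libraries to 760 to 884 in DAC+ATRA libraries, while IRF3 stays between 60.0 and 85.9 in all 12.

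**Figure D2:**
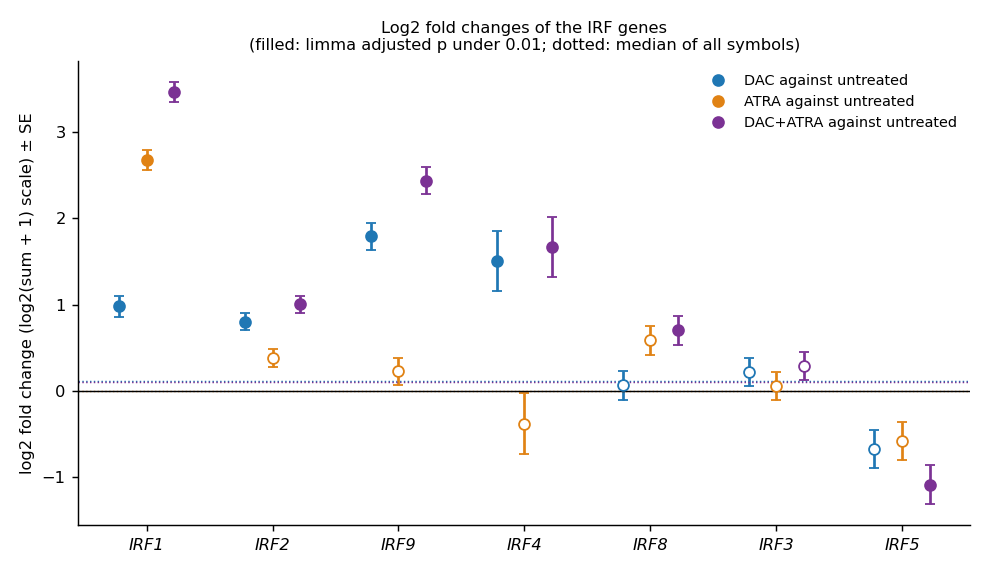
Log2 fold changes (y axis) of the summed IRF genes (x axis) with their standard errors, against untreated cells, for DAC, ATRA and DAC+ATRA. Filled points passed a limma adjusted p of 0.01 and dotted lines mark the median of all symbols (0.12 and 0.11 for DAC and DAC+ATRA). IRF1 has the only filled ATRA point, and IRF5 the only filled point below 0.

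IRF1 rose with each agent and had the largest fold change of the family with ATRA and with DAC+ATRA, while IRF9 and IRF4 had larger ones with DAC. Its summed normalized reads were 73.5, 74.6 and 76.7 in the untreated libraries, 137, 153 and 156 in DAC, 434, 484 and 540 in ATRA, and 760, 864 and 884 in DAC+ATRA libraries. The 4 groups did not overlap, and their order was untreated, DAC, ATRA, DAC+ATRA, and ATRA and DAC were not tested against each other. The level rose 1.97-fold with DAC (log2 fold change 0.98 ± 0.12 SE, limma adjusted p = 3.2e-07), 6.39-fold with ATRA (2.68 ± 0.12, adjusted p = 8.79e-14) and 11-fold with both (3.46 ± 0.12, adjusted p = 1.26e-16). DAC+ATRA exceeded DAC by 2.48 ± 0.12 and ATRA by 0.78 ± 0.12 on the log2 scale (adjusted p = 5.79e-13 and 7.92e-06).

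Differences between transcripts of a gene, here and for IRF8 and IRF9, depend on how reads in shared exons were assigned, which is not given in the sources used here. As counted, the gain of IRF1 with DAC was on its leading protein-coding transcript. ENST00000245414 (GENCODE 44, chr5:132481609-132490773, minus strand, 10 exons) carried 77.7% of the IRF1 reads. It had 53.3, 53.6 and 53.7 normalized reads in untreated, 111, 132 and 132 in DAC, 287, 337 and 389 in ATRA and 604, 733 and 746 in DAC+ATRA libraries. In the fit of 9016 protein-coding transcripts it rose with DAC by 1.21 ± 0.14, with ATRA by 2.62 ± 0.14 and with both by 3.67 ± 0.14 (log2 fold change ± SE, limma adjusted p = 2.85e-07, 1.2e-11 and 5.76e-15). These groups too did not overlap.

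A second IRF1 transcript, ENST00000472045 (chr5:132483085-132489032, annotated as a retained intron), was called with ATRA and not with DAC. Its normalized reads were 16.4, 18.4 and 21.2 in untreated and 16.6, 18.9 and 23.8 in DAC libraries, which overlapped. They were 121, 128 and 131 with ATRA and 111, 117 and 142 with DAC+ATRA, which overlapped as well. In the fit of 19373 transcripts of all types, its log2 fold change was 0.07 ± 0.19 with DAC (adjusted p = 0.792), 2.70 ± 0.19 with ATRA (adjusted p = 6.41e-11) and -0.05 ± 0.19 for DAC+ATRA against ATRA (adjusted p = 0.877). The transcript with the fewest reads that passed the filter, ENST00000476613 (protein-coding), had 1.84 ± 0.0135 normalized reads in untreated and 8.11 ± 2.56 in ATRA cells (SD, n = 3), a difference of 1.64 ± 0.41 (limma adjusted p = 0.00774). It reached 10 normalized reads only in libraries with ATRA, so it entered the test through the groups where it is high, and nothing is drawn from its call.

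Whether the IRF1 transcripts moved apart was tested with limma's diffSplice over 10499 transcripts of genes with at least 2 tested transcripts, a test chosen after the values were seen, so it is given as a description. The others of IRF1 are ENST00000472045 and the sparse ENST00000476613, with equal weight. ENST00000245414 gained on them by 1.199 log2 units with DAC (adjusted p = 0.00593) and by 1.302 with DAC+ATRA (adjusted p = 0.0026), where 5.93% and 7.7% of all transcripts were called. With ATRA the difference was 0.45 (adjusted p = 0.804), and between DAC+ATRA and ATRA it was 0.85 (adjusted p = 0.0734), so neither was called, as 0.19% and 3.29% of all transcripts were. The shares called were 0.171% for DAC+ATRA against DAC and 0.0571% for the interaction. Over the 8189 transcripts with a mean of at least 10 normalized reads, which leaves out ENST00000476613 and was also chosen after the values were seen, the gap to ENST00000472045 was 1.14 with DAC, -0.08 with ATRA, 1.01 with DAC+ATRA and 1.09 for DAC+ATRA against ATRA (adjusted p = 0.00126, 0.982, 0.00284 and 0.00282). The last of these passed only under this filter. For the 8 tested transcripts of IRF3, IRF8 and IRF9 it made 0 calls over the 6 comparisons (48 tests, 9 at an unadjusted p under 0.05), and the smallest adjusted p was 0.0235, for IRF9 ENST00000560311 with DAC.

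The gene on the opposite strand beside IRF1, C5orf56 (IRF1-AS1 in GENCODE 44), had a pattern of its own. It had 92.1 ± 13.6 normalized reads in untreated, 96.3 ± 16.4 in DAC, 429 ± 76.6 in ATRA and 645 ± 5.13 in DAC+ATRA cells (SD, n = 3). Its log2 fold change was 0.06 ± 0.15 with DAC (adjusted p = 0.76) and 2.20 ± 0.15 with ATRA (adjusted p = 1.42e-10), and DAC+ATRA exceeded ATRA by 0.60 ± 0.15 (limma adjusted p = 0.00193). The exons of its main transcripts shared 0 bases with those of the 2 leading IRF1 transcripts. One other IRF1-AS1 transcript, ENST00000612967, covered 16.3% of the exon bases of ENST00000245414 and 33.3% of those of ENST00000472045, and it had 56 reads over all libraries against 3600 and 887. The libraries were made with a kit that keeps the strand, and the strand setting of the counting is not given in the sources used here.

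**Figure D3:**
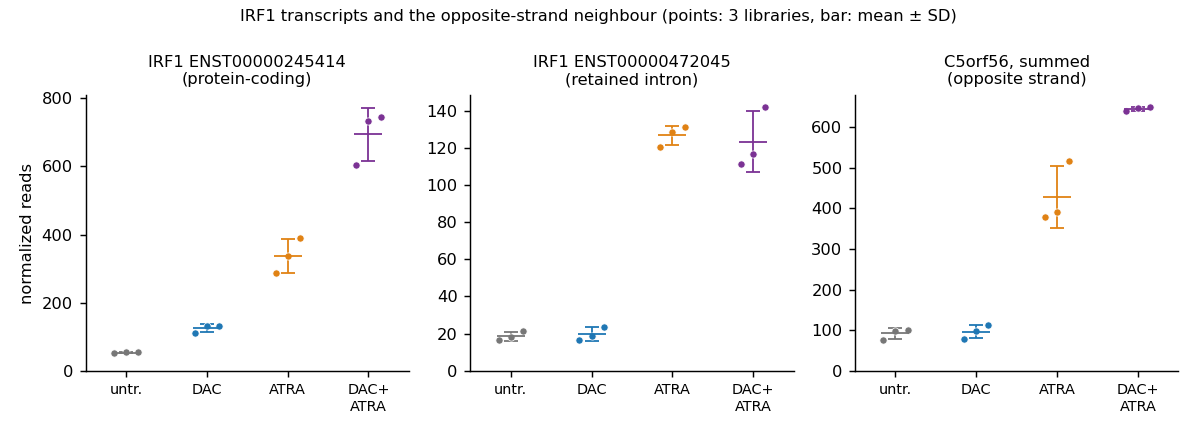
Normalized reads (y axis, linear, from 0) of 2 IRF1 transcripts and of C5orf56 on the opposite strand in the 4 groups (x axis), with the 3 libraries as points in order of value and the mean ± SD as bars. The protein-coding transcript rises with DAC to 125 ± 12.2 from 53.5 ± 0.203, while the retained-intron transcript (19.8 ± 3.68 against 18.7 ± 2.44) and C5orf56 stay level with DAC within their spread.

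IRF2, the counterpart of IRF1 at the same DNA element, had a smaller estimated fold change than IRF1 in each comparison with untreated cells. The 2 genes were not tested against each other, and with DAC their log2 fold changes were close (0.80 ± 0.10 and 0.98 ± 0.12). It had 356, 362 and 374 normalized reads in untreated, 622, 638 and 643 in DAC, 432, 477 and 520 in ATRA and 702, 733 and 757 in DAC+ATRA libraries. No group overlapped another, and the order was untreated, ATRA, DAC, DAC+ATRA, so DAC and ATRA stood in the opposite order to IRF1. DAC raised it 1.74-fold (0.80 ± 0.10 on the log2 scale, limma adjusted p = 5.98e-07) and DAC+ATRA 2.00-fold (1.00 ± 0.10, adjusted p = 1.41e-08). With ATRA the difference of 0.38 ± 0.10 fell just outside the threshold (adjusted p = 0.0101), and it passed in edgeR with TMM (0.37, adjusted p = 0.00731). DAC+ATRA exceeded ATRA by 0.62 ± 0.10 (adjusted p = 2.08e-05) and stood 0.20 ± 0.10 from DAC (adjusted p = 0.18). A single protein-coding transcript, ENST00000393593 (chr4:184387729-184474550, minus strand, 9 exons), held 98.6% of the IRF2 reads, and 6 others shared the rest.

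IRF9, the DNA-binding subunit of ISGF3, followed DAC. Its summed normalized reads were 42.3, 56.3 and 60.1 in untreated, 159, 181 and 213 in DAC, 59.1, 60.1 and 64.9 in ATRA and 256, 289 and 318 in DAC+ATRA libraries. The untreated and ATRA libraries overlapped, and both lay below all DAC libraries, which lay below all DAC+ATRA libraries. DAC raised IRF9 3.46-fold (1.79 ± 0.16 on the log2 scale, limma adjusted p = 2.3e-09), ATRA stood at 0.23 ± 0.16 (adjusted p = 0.399), and DAC+ATRA raised it 5.39-fold (2.43 ± 0.16, adjusted p = 1e-11). DAC+ATRA exceeded DAC by 0.64 ± 0.16 (adjusted p = 0.00488) and ATRA by 2.21 ± 0.16 (adjusted p = 8.18e-11). The call against DAC was lost without DAC library 5 (0.63, adjusted p = 0.0168) or DAC library 6 (0.54, adjusted p = 0.037), without DAC+ATRA library 10 (0.57, adjusted p = 0.0389) or 12 (0.64, adjusted p = 0.022), and with scaling by library total (0.62, adjusted p = 0.0102).

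No protein-coding IRF9 transcript had reads, and all 6 that did are annotated as nonsense-mediated decay or retained-intron forms of the gene on chr14. ENST00000560542 (chr14:24161302-24166483, plus strand), with 60.1% of the reads, had 21.1, 36.0 and 40.1 normalized reads in untreated, 96.6, 106 and 138 in DAC, 42.8, 43.3 and 46.5 in ATRA and 141, 172 and 174 in DAC+ATRA libraries. In the fit of all transcript types it rose with DAC by 1.81 ± 0.21 (limma adjusted p = 5.96e-08). ENST00000561415 went from 7.97 ± 2.86 in untreated to 39.7 ± 5.07 in DAC and 60.2 ± 6.92 in DAC+ATRA cells (SD, n = 3). ENST00000560311 went from 11.9 ± 3.23 to 24.7 ± 2.31 and 57.1 ± 14.7, and it was the IRF transcript nearest to a call for an interaction of DAC and ATRA (1.45 ± 0.39, adjusted p = 0.0386). All 3 passed the threshold with DAC and with DAC+ATRA, but ENST00000561415 reached 10 in 1 library without DAC, so it met the filter only through the groups where it is high and nothing is drawn from its calls.

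IRF4, the lymphoid member, was near the lower end of detection and rose with DAC. Its reads lay on 1 protein-coding transcript, ENST00000380956 (chr6:391752-411443, plus strand, 9 exons). It had 4.60, 6.37 and 10.2 normalized reads in untreated, 15.9, 19.5 and 29.2 in DAC, 3.17, 5.83 and 6.37 in ATRA and 19.0, 24.2 and 28.4 in DAC+ATRA libraries, from 3 to 30 reads a library. Every library with DAC lay above every library without it. Of the libraries without DAC, 1 reached 10, so IRF4 met the filter only through the groups where it is high, and its fits are given as a description. The summed fit gave 2.83-fold with DAC (1.503 ± 0.35 on the log2(sum + 1) scale, limma adjusted p = 0.00102), 3.18-fold with DAC+ATRA (1.67 ± 0.35, adjusted p = 0.000293) and -0.38 ± 0.35 with ATRA (adjusted p = 0.553). The difference between DAC+ATRA and DAC was 0.17 ± 0.35 (adjusted p = 0.806). Without DAC library 5 the DAC change was 1.27 and no longer passed (adjusted p = 0.0105).

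IRF8, the monocyte regulator, passed the test against untreated cells with DAC+ATRA, and not with either agent alone. Its summed normalized reads were 64.3, 82.8 and 83.1 in untreated, 63.3, 77.7 and 103 in DAC, 107, 112 and 127 in ATRA and 121, 126 and 127 in DAC+ATRA libraries. The untreated and DAC libraries overlapped, as did the ATRA and DAC+ATRA libraries, and the lowest ATRA library lay above the highest DAC library. DAC+ATRA raised it 1.63-fold (0.70 ± 0.17, limma adjusted p = 0.0011), while the ATRA difference of 0.58 ± 0.17 missed the threshold (adjusted p = 0.0202) and the DAC difference was 0.06 ± 0.17 (adjusted p = 0.779). DAC+ATRA against ATRA was 0.12 ± 0.17 and was not called (adjusted p = 0.588), so the combination was not set apart from ATRA. DAC+ATRA against DAC was 0.64 ± 0.17 (adjusted p = 0.00869), a call lost in most fits that left out 1 library, among them those without DAC library 5 (0.48, adjusted p = 0.0617) and without DAC library 6 (0.62, adjusted p = 0.0303), and in DESeq2 (0.63, adjusted p = 0.011). Without untreated library 1 the DAC+ATRA change against untreated cells was 0.58 (adjusted p = 0.0105).

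Within IRF8, a shorter transcript passed the test and the leading one did not. ENST00000268638 (chr16:85899162-85922606, plus strand, 9 exons) held 64.9% of the reads and had 47.8, 57.3 and 60.0 normalized reads in untreated, 40.9, 58.8 and 73.5 in DAC, 65.8, 76.5 and 78.1 in ATRA and 69.5, 71.4 and 72.9 in DAC+ATRA libraries. It was called in none of the 6 comparisons, with 0.41 ± 0.20 for ATRA and 0.37 ± 0.20 for DAC+ATRA (limma adjusted p = 0.192 and 0.113). ENST00000563180 (chr16:85902689-85909882, 2 exons, protein-coding) starts inside the IRF8 window printed above. It had 8.27, 10.2 and 14.6 normalized reads in untreated, 12.9, 17.3 and 21.4 in DAC, 18.2, 24.1 and 29.6 in ATRA and 37.9, 39.5 and 45.2 in DAC+ATRA libraries. The DAC+ATRA libraries lay above all others, 1.83 ± 0.28 over untreated (adjusted p = 9.68e-06) and 1.22 ± 0.28 over DAC (adjusted p = 0.00313), while ATRA against untreated (1.07 ± 0.28, adjusted p = 0.011) and DAC+ATRA against ATRA (0.77 ± 0.28, adjusted p = 0.029) missed the threshold. The diffSplice difference between this transcript and the rest of IRF8 was 1.52 with DAC+ATRA and was not called (adjusted p = 0.0704).

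**Figure D4:**
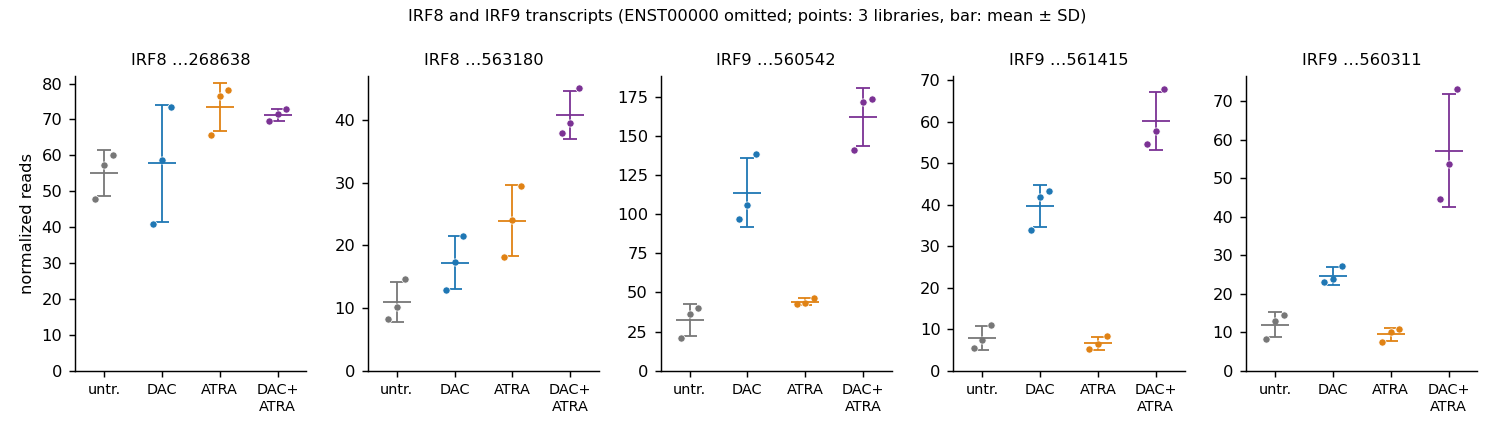
Normalized reads (y axes, linear, from 0, each panel its own scale) of 2 IRF8 and 3 IRF9 transcripts in the 4 groups (x axis), with the 3 libraries as points in order of value and the mean ± SD as bars. IRF8 ENST00000563180 reaches 40.9 ± 3.83 with DAC+ATRA from the 8.27 to 14.6 of the untreated libraries, and the 3 IRF9 transcripts are high in both groups that received DAC.

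Of the factors that wait on phosphorylation, IRF3 was called in no comparison, IRF5 fell with the combination, and IRF7 had no reads. IRF3 had 60.0, 63.4 and 76.5 normalized reads in untreated, 65.9, 81.8 and 85.7 in DAC, 63.7, 68.6 and 74.9 in ATRA and 72.6, 85.3 and 85.9 in DAC+ATRA libraries, and all 4 groups overlapped. Its largest difference was 0.29 ± 0.16 with DAC+ATRA (limma adjusted p = 0.139). Its reads lay on 3 transcripts, led by ENST00000597636 (chr19:49659575-49665857, minus strand, annotated as subject to nonsense-mediated decay) with 66.3%.

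IRF5 was the 1 member called lower, by its summed reads. It had 80.9, 104 and 105 normalized reads in untreated, 44.8, 59.8 and 80.0 in DAC, 45.5, 72.4 and 79.2 in ATRA and 38.3, 44.3 and 52.6 in DAC+ATRA libraries, so each treated library lay below each untreated one. With DAC+ATRA it fell by 1.08 on the log2 scale (SE 0.22, limma adjusted p = 0.000239), to 0.471 of the untreated level. With DAC the difference was -0.67 ± 0.22 (adjusted p = 0.0149) and with ATRA -0.58 ± 0.22 (adjusted p = 0.0885), and neither was called. The DAC difference passed in edgeR with TMM (-0.77, adjusted p = 0.00335). A retained-intron transcript, ENST00000488569 (chr7:128937937-128946942, plus strand), held 80.2% of the reads, and the leading protein-coding one, ENST00000467002, averaged 4.65 normalized reads and was not tested. The fall is therefore mostly of reads counted on the retained-intron form.

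Between the treated groups, 3 of 7 summed IRF genes were called for DAC+ATRA against DAC (IRF1, IRF8 and IRF9, all higher, where 12.3% of all symbols were called and 6.68% were higher) and 4 of 7 for DAC+ATRA against ATRA (IRF1, IRF2, IRF4 and IRF9, all higher, where 37.1% were called and 25.1% were higher). The last count includes IRF4, which met the filter through the libraries with DAC. The interaction, which asks whether the log2 changes of the single agents add up, was called for 0 of 7 by limma, edgeR and DESeq2, with 0 of 7 at an unadjusted p under 0.05 in limma, where 2.46% of all symbols were called. For IRF1 it was -0.19 ± 0.17 and for IRF9 0.42 ± 0.22 (limma adjusted p = 0.603 and 0.349). By protein-coding transcript, 7 IRF transcripts were tested and 3, 2 and 5 were called with DAC, ATRA and DAC+ATRA, where 39.3%, 9.14% and 46.8% of all such transcripts were called. In the remaining comparisons 3 were called against DAC and 3 against ATRA (11.3% and 34.8% of all), and 0 for the interaction (2.46%), 0 also at an unadjusted p under 0.05, and 0 by edgeR and DESeq2. These counts include IRF4 ENST00000380956 (DAC, DAC+ATRA and against ATRA) and IRF1 ENST00000476613 (ATRA, DAC+ATRA and against DAC), which met the filter through the groups where they are high. Over all transcript types, 14 IRF transcripts were tested and 6, 3 and 10 were called with DAC, ATRA and DAC+ATRA, 5 for DAC+ATRA against DAC and 6 against ATRA, with these 2 and IRF9 ENST00000561415 counted under the same limit. The shares of all transcripts called there were 33.5%, 6.97%, 41.6%, 8.77% and 29.4%.

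The transcripts most like the called leading IRF transcripts were listed by Pearson's r on log2(normalized reads + 1) over the 12 libraries, among 9015 others, as a description of points that share libraries and groups. For IRF1 these were DENND6B (r = 0.995), LRG1 (0.993) and CREB3L3 (0.992), and DENND6B went from 63.0 in untreated through 169 and 493 to 1274 normalized reads with DAC, ATRA and DAC+ATRA. For IRF2 they were IFIT5 (0.991), TRIM21 (0.990) and SUSD6 (0.990). For IRF4 they were LIPH (0.978), TMEM56 (0.977) and MEI4 (0.973), and LIPH had 3.98, 22.7, 1.79 and 31.0 normalized reads in untreated, DAC, ATRA and DAC+ATRA cells. IRF4 met the filter only through the libraries with DAC, and these 3 transcripts also averaged under 10 in both groups without DAC. Their likeness to IRF4 is therefore partly set by the filter, and nothing is drawn from it.

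The genes around the IRFs were described from lists, again on summed values. Each list count stands against the shares of all symbols called higher and lower, which were 28.2% and 12.4% with DAC, 6.68% and 2.93% with ATRA, and 31.1% and 17.4% with DAC+ATRA, and against all-symbol medians of 0.12, 0.00 and 0.11. Genes under 10 normalized reads in every untreated library entered only through treated libraries, so counts that include them are partly set by the filter and are given as a description. Among 11 tested interferon receptors and JAK-STAT relay genes, DAC raised 5, ATRA 2 and the combination 9, and none fell (list medians 0.44, 0.25 and 0.94, the ATRA value 0.20 with IFNLR1 at its bound). IFNLR1 was the 1 gene of the 11 that was under 10 in every untreated library. IFNLR1, the receptor chain for lambda interferons, had 0 reads in untreated libraries, 63.7 to 104 normalized reads with DAC and 47.9 to 70.4 with DAC+ATRA, at least 28.7-fold and 22.2-fold higher against a floor of 3 reads per library. IFNAR2, a chain of the type I interferon receptor, rose with ATRA (784 ± 62.9 against 478 ± 28.3, SD, n = 3, log2 fold change 0.71 ± 0.10, limma adjusted p = 1.45e-05). TYK2 with DAC (0.13 ± 0.14) and IFNGR2 with DAC+ATRA (0.16 ± 0.35) had the lowest fold changes there, and neither was called. STAT2, a partner of IRF9, was among the 9 that rose with DAC+ATRA.

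Among 16 tested genes of the sensing pathway that activates IRF3, IRF5 and IRF7, 5 rose and 1 fell with DAC, 1 rose and 1 fell with ATRA, and 11 rose and 1 fell with DAC+ATRA (medians 0.12, 0.23 and 0.83). With the single agents these numbers were close to the shares over all symbols, and 2 of the 16, DDX58 and TLR3, were under 10 in every untreated library. DDX58, the RNA sensor RIG-I, rose most with DAC (6.12 ± 2.66 to 21.5 ± 5.91 normalized reads, 1.69 ± 0.33, limma adjusted p = 0.000197). TMEM173, the adaptor STING of DNA sensing, was the gene that rose with ATRA (1880 ± 123 to 5910 ± 265, 1.65 ± 0.11, adjusted p = 8.3e-11). TLR3, a sensor of double-stranded RNA, reached 10 only in the DAC+ATRA libraries, with 2.76 ± 1.85 in untreated and 19.9 ± 2.81 in DAC+ATRA cells. CXorf21, which works with SLC15A4 upstream of IRF5, was the gene that fell in all 3 comparisons, from 1121 ± 57.7 to 706 ± 150, 755 ± 47.8 and 614 ± 55.1. The 9 interferon genes searched, IFNB1 and IFNG among them, all missed the filter, and IFNB1 had 0 to 1.85 normalized reads in untreated, 1.95 to 6.49 in DAC, 0 to 1.06 in ATRA and 2.47 to 6.32 in DAC+ATRA libraries.

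Among 12 tested binding partners and corepressors, 5 rose and 1 fell with DAC, 0 were called with ATRA by limma or edgeR (4 at an unadjusted p under 0.05 in limma), and 6 rose and 1 fell with DAC+ATRA (medians 0.59, 0.16 and 0.50). BATF3 and SPIB, 2 of the 12, were under 10 in every untreated library. BATF3, an AP-1 factor that pairs with IRF4 and IRF8, rose most with DAC (4.27 ± 1.88 to 44.3 ± 10.3 normalized reads, 3.13 ± 0.35, limma adjusted p = 1.11e-07). SPIB, an Ets relative of PU.1, had 2 reads in the untreated libraries together and 36 with DAC+ATRA, a ratio of 20.5 (exact 95% interval 5.29 to 176, counting error only), and 0 reads with either single agent. IRF2BP2, a corepressor that binds IRF2, fell with DAC (119 ± 13.8 to 70.2 ± 14.5, -0.77 ± 0.17) and DAC+ATRA (59.9 ± 3.79, -0.98 ± 0.17). SPI1, which encodes PU.1 itself, was called in none of the 3 comparisons (130 ± 10.9, 111 ± 17.0, 166 ± 13.9 and 120 ± 14.3 in untreated, DAC, ATRA and DAC+ATRA cells).

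The genes known to answer to ISGF3 mostly rose where DAC was given. Of 26 tested interferon-stimulated genes of ISGF3 (32 in the list), 21 rose and 1 fell with DAC, 10 rose with ATRA and 22 rose with DAC+ATRA, with medians of 1.29, 0.48 and 2.34. Of the 26, 8 were under 10 in every untreated library, IFI44L among them. IFI44L went from 1.53 ± 1.06 to 56.8 ± 1.88 normalized reads with DAC and 182 ± 24.1 with DAC+ATRA (4.59 ± 0.37 and 6.25 ± 0.37, limma adjusted p = 4.75e-10 and 1.85e-12), and had 1.16 ± 1.01 with ATRA. IFIT5 rose most with ATRA (64.9 ± 9.46 to 229 ± 25.1, 1.81 ± 0.13, adjusted p = 3.46e-10). MX2 was the gene that fell with DAC (783 ± 29.3 to 594 ± 87.3, -0.41 ± 0.11, adjusted p = 0.00294).

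Of the targets of IRF1 and gamma-interferon, 13 of 24 passed the filter, and 7 of these 13 (GBP1, GBP4, CIITA, CXCL9, CXCL10, CXCL11 and SOCS1) were under 10 in every untreated library, so they had to differ. With that limit, limma called 13 higher with DAC+ATRA, 8 with DAC and 3 with ATRA, and none lower (medians 3.29, 1.65 and 0.77, the first 2.32 with CXCL9, which had 0 reads in untreated cells, at its bound). SOCS1, the feedback inhibitor of JAK kinases, rose most with DAC (3.38 ± 3.23 to 154 ± 28.9 normalized reads, 5.55 ± 0.61, limma adjusted p = 1.11e-05). GBP4, a guanylate-binding protein, had 3 reads in untreated libraries together, 34 with ATRA and 552 with DAC+ATRA, ratios of 11.4 (exact 95% interval 3.59 to 58.1) and 210 (71.5 to 1021). B2M, the light chain of MHC class I, stood at -0.31 ± 0.17, 0.06 ± 0.17 and 0.58 ± 0.17, and only the last was called (adjusted p = 0.0069). In edgeR 12 of the 13 were called with DAC+ATRA. The 11 other listed genes, with the immunoproteasome subunits among them, did not reach the filter, so they entered no count.

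Of 10 tested monocyte targets of IRF8 and PU.1 (15 in the list), 7 rose and 2 fell with DAC, 4 rose and 1 fell with ATRA, and 6 rose and 1 fell with DAC+ATRA (medians 0.58, 0.47 and 1.36). In edgeR with TMM 4 rose with DAC, and 3 of the 10 were under 10 in every untreated library, NCF1 among them. CYBB, the catalytic subunit of the phagocyte oxidase, rose most with DAC (224 ± 23.1 to 2994 ± 440 normalized reads, 3.73 ± 0.11, limma adjusted p = 1.35e-17). NCF1, a cytosolic subunit of the same oxidase, had 1 read in untreated libraries together, 168 with ATRA and 201 with DAC+ATRA, ratios of 169 (exact 95% interval 29.9 to 6721) and 229 (40.7 to 9103). CD36, a scavenger receptor, fell in all 3 comparisons, from 278 ± 24.8 to 112 ± 10.3, 184 ± 14.7 and 77.9 ± 9.78.

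Listed genes called for the interaction of DAC and ATRA were named after their values were seen, and 2.46% of all symbols were called. They were JAK2 of 11 receptor and relay genes (0.62 ± 0.14, limma adjusted p = 0.00702), SPIB of 12 partners, OAS1 and XAF1 (higher) and USP18 and IFIT5 (lower) of 26 ISGF3 genes, GBP4 and GBP5 of 13 IRF1 targets, and CYBB and NCF1 (lower) of 10 IRF8 and PU.1 targets. SPIB, GBP4 and NCF1 were under 10 in every untreated library. Of the 16 sensing genes 0 were called, and of the 8 tested myelomonocytic markers 1 was called, lower.

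**Figure D5:**
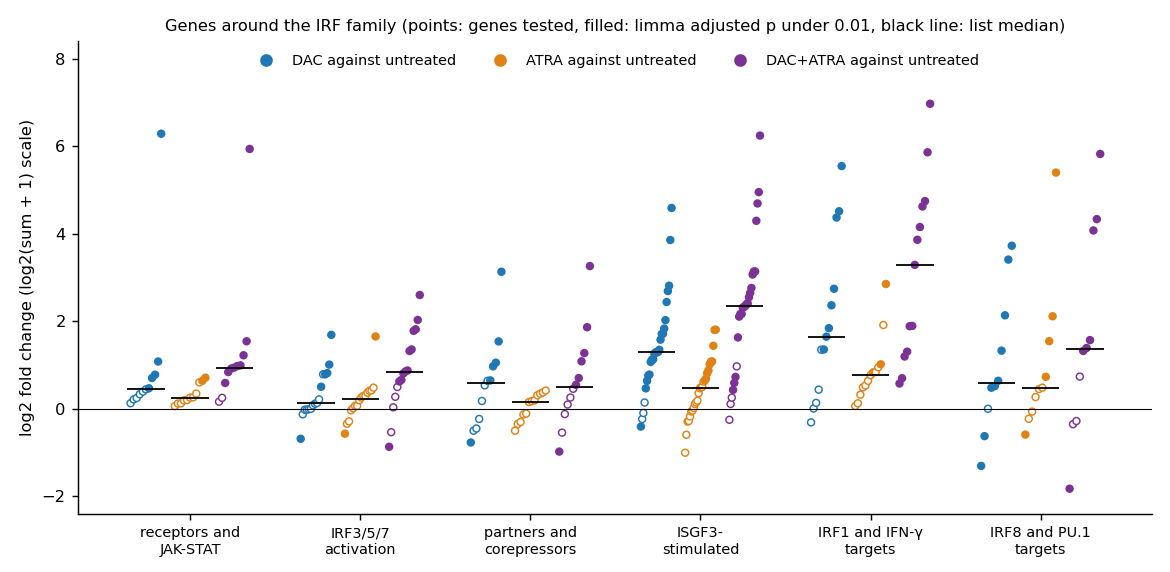
Log2 fold change against untreated cells (y axis) of the tested genes of 6 lists around the IRF family (x axis), for DAC, ATRA and DAC+ATRA. Each point is a gene, filled points passed a limma adjusted p of 0.01, and black lines are list medians, which reach 2.34 for the ISGF3-stimulated genes and 3.29 for the IRF1 targets with DAC+ATRA.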

How the data were processed

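RNA of 12 U937 libraries (4 groups of 3) was sequenced from strand-keeping, ribosomal-RNA-depleted libraries. Per the labels, the submitters' processing notes name FastQC, STAR, HTSeq, DESeq2 and hg38; versions, the annotation release, the strand setting and the handling of exons shared by transcripts are not given in the sources used here. The authors deposited a signal: read counts per transcript divided by 1 size factor per library. Every value came out as a whole read (tolerance 0.01) once multiplied back. Column headers gave the group of a library and not its replicate number, so libraries are numbered by column.

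Deposited values were tested with limma 3.58.1 (R 4.3.3; lmFit, eBayes with trend and robust) on log2(value + 1), all 12 libraries in 1 fit, with Benjamini-Hochberg adjustment and a threshold of 0.01. Protein-coding transcripts (9016), all transcripts (19373) and sums per symbol (13528) with at least 10 normalized reads in at least 3 libraries were fitted. Folds are on the log2(value + 1) scale and understate changes of low genes. Count tests on the recovered reads used edgeR 4.0.16 (quasi-likelihood, TMM) and DESeq2 1.42.0; over symbols, edgeR called 5809, 1346 and 6740 with DAC, ATRA and DAC+ATRA and limma 5493, 1300 and 6559. The fits were also run on simulated reads, with an outcome that is not given here. Positions and types are from GENCODE 44 on GRCh38, matched by transcript ID without version; 23014 of 197782 transcripts were not matched, and 15414 of the 90879 taken as protein-coding were so by the gene symbol alone. Promoter windows are from RefSeq. Levels are not compared between genes, since no lengths were applied. Ratios to 1 to 3 reads carry exact 95% intervals, which cover counting error only.

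Every IRF gene and each of its transcripts past the filter could be named, and from each list the genes with the highest and lowest log2 fold change against untreated cells; STAT2, SPI1, IFNB1, CXCL9, the markers and the genes called for the interaction were named after their values were seen. Some listed genes are not reported here. The members and lists were chosen with earlier results of these data known. Alternatives were another scaling, test, pseudocount, filter, threshold and set of groups, and leaving out each library.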

Additional observations from a re-analysis of the deposited data

How the results depend on the processing

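No paired analysis was possible because the column headers do not carry the labels' replicate numbers. An order of genes per kilobase was not run, since transcript versions differ from GENCODE 44. For the 29 called single-gene results, 221 values under other settings kept the call and 5 lost it, and 333 values without 1 library kept it and 15 lost it, with no reversal. The other settings include the looser threshold of 0.05, where a called result cannot lose its call, so those values were bound to keep it. The 29 results also count IRF4 both by transcript and summed, which are the same values. IRF4 met the filter only through the libraries with DAC, so these counts are given as a description. IRF genes called with ATRA numbered 2 in edgeR with TMM, in DESeq2, at a pseudocount of 0.1 and in edgeR without DAC library 6 (chosen after seeing the data), 3 at a threshold of 0.05, and 1 to 2 without 1 library. For DAC+ATRA against DAC they numbered 1 with scaling by library total and 1 to 3 without 1 library. Protein-coding IRF transcripts called with ATRA numbered 1 in edgeR with deposited factors, without a filter, with at least 10 reads in every library, at a pseudocount of 0.1 and with only the compared groups, 4 at 0.05, and 1 to 3 without 1 library. With at least 10 reads in every library 2 were called for DAC+ATRA and 1 against DAC. Over all transcript types 6, 10, 5 and 6 were called for DAC, DAC+ATRA, DAC+ATRA against DAC and against ATRA.

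Signs changed in these alternatives only for differences that were not called, and the cause was not tested. With DAC, IRF8 ENST00000268638 was -0.14 in edgeR with TMM, -0.093 by library total and -0.16 in edgeR without DAC library 6, and summed IRF8 was -0.035, -0.065 and -0.011 there. Summed IRF3 with ATRA was -0.012 by library total. For DAC+ATRA against DAC in edgeR without DAC library 6, IRF4 ENST00000380956 was -0.011 and summed IRF4 -0.023. Without 1 library, summed IRF3 ran from -0.014 to 0.16 with ATRA, -0.047 to 0.14 against DAC and -0.10 to 0.089 for the interaction. IRF4, by transcript and summed, ran from -0.018 to 0.40 against DAC, and the IRF5 interaction from -0.075 to 0.37. IRF8 ENST00000268638 ran from -0.16 to 0.26 with DAC, -0.12 to 0.0070 for DAC+ATRA against ATRA and -0.30 to 0.12 for the interaction, and summed IRF8 from -0.12 to 0.23 with DAC and -0.11 to 0.24 for the interaction. Depth limits IRF4, which had 3 to 11 reads a library without DAC.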
